A study of Sus scrofa with 11 samples.

Results

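The SLC25 family of mitochondrial carriers was followed in pig liver after hepatic irradiation. SLC25 proteins sit mostly in the inner mitochondrial membrane and exchange or import small molecules that cannot cross it freely: nucleotides, phosphate, di- and tricarboxylates, amino acids, acylcarnitines and cofactors. In liver they link mitochondria to fatty acid oxidation, to the export of citrate for fat synthesis, to the urea cycle and to glucose production. The members were all genes whose symbol is SLC25A followed by a number and whose expression reached 1 FPKM (sequenced fragments scaled to gene length and to the mapped fragments of the library) in at least 2 libraries. Of 42 such symbols in the pig gene name table, 38 were found in the expression table of 12505 genes, and these 38 passed, among 11644 genes that did. SLC25A31, SLC25A53, SLC25A41 and SLC25A30 were not analysed here. The member nearest to the threshold was SLC25A24, which reached 1 FPKM in 3 libraries, with 1.17, 1.06 and 1.58 FPKM. The members were sorted into 13 groups by the substrate they are known to carry.

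RNA was measured in 11 libraries of liver from pigs, labelled wild type, with hepatocyte given as the cell type: 2 controls labelled day 0 (Control-1 and Control-2), and 3 libraries each of 20, 30 and 40 Gy of irradiation, all labelled day 35 (20Gy-1 to 40Gy-3). The series concerns liver disease after irradiation with obstruction of hepatic veins. The controls carry another day than the irradiated libraries, so irradiation and time cannot be told apart in any comparison against control. The labels do not tell whether the libraries of a group came from separate animals, so p-values measure only the spread between these libraries. The defining hepatocyte markers were high, with ALB, APOA1, TTR, TF, SERPINA1, CPS1 and HNF4A summing to 39566 to 62845 FPKM in the controls, 42606 to 53614 at 20 and 30 Gy, and 14481 to 22880 at 40 Gy. These sums are mostly ALB, and the markers differed at 40 Gy: ALB was at 7050 to 10811 FPKM there against 27027 or more in every other library, while CPS1 (587 and 593 FPKM) and HNF4A (155 and 144 FPKM) had their highest values in 40Gy-2 and 40Gy-3. Markers of other liver cells were also present, as in whole tissue, and fewer cells of a type and less RNA per cell cannot be told apart in such libraries.

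Some pairs of libraries were nearly identical. Over 4806 genes with at least 5 FPKM everywhere, the SD of the log2 ratio was 0.137 between 30Gy-1 and 30Gy-2 and 0.130 between 20Gy-3 and 30Gy-3, against 0.305 to 1.008 for the other 53 pairs. The mean of 30Gy-1 and 30Gy-2 was therefore counted as 1 sample, which gives n = 2 at 30 Gy. 20Gy-3 and 30Gy-3 carry labels of different doses, and the results of the members are given also without this pair where that ends a call. Calls of genes that are not members are given from the main fit only, and were not examined without this pair or without single libraries. At 40 Gy, 40Gy-1 stood apart from the others. Of the 4806 genes, 826 differed over 2-fold from the median ratio between 40Gy-1 and 40Gy-2, 922 between 40Gy-1 and 40Gy-3, and 68 between 40Gy-2 and 40Gy-3. Among the 38 members, 20 differed over 2-fold between the highest and lowest of the 3 libraries of 40 Gy, and 0 between 40Gy-2 and 40Gy-3. These shares of members were not counted over all genes and are descriptions. The values below are listed in the order of the replicate numbers, and a group is given as its mean ± SD.

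The family's RNA was dominated by a few carriers. SLC25A6, an ADP/ATP carrier that exports ATP made by oxidative phosphorylation, had the highest mean level (602 FPKM over the 11 libraries), followed by SLC25A47, a carrier made mainly in liver whose substrate is not settled (417 FPKM). SLC25A4 (270.1 FPKM), SLC25A3 (173 FPKM) and SLC25A39 (115 FPKM) completed the 5 members above 100 FPKM on average, while 19 members were below 10 FPKM. These 5 genes held 60.4% to 71.5% of the family's summed FPKM in each library. The sum itself was 2928 and 3229 FPKM in the controls, 1893 to 2100 at 20 and 30 Gy, and 1752, 3191 and 2957 at 40 Gy. Without SLC25A47 the same sums were 2099 and 2129 FPKM in the controls, 1742 to 1911 at 20 and 30 Gy, and 1417, 2490 and 2301 at 40 Gy, so that SLC25A47 alone held much of the gap between the controls and the lower doses. FPKM depends on the total of the library, and the summed FPKM of the measured genes ran from 520839 to 949840.

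**Figure D1:**
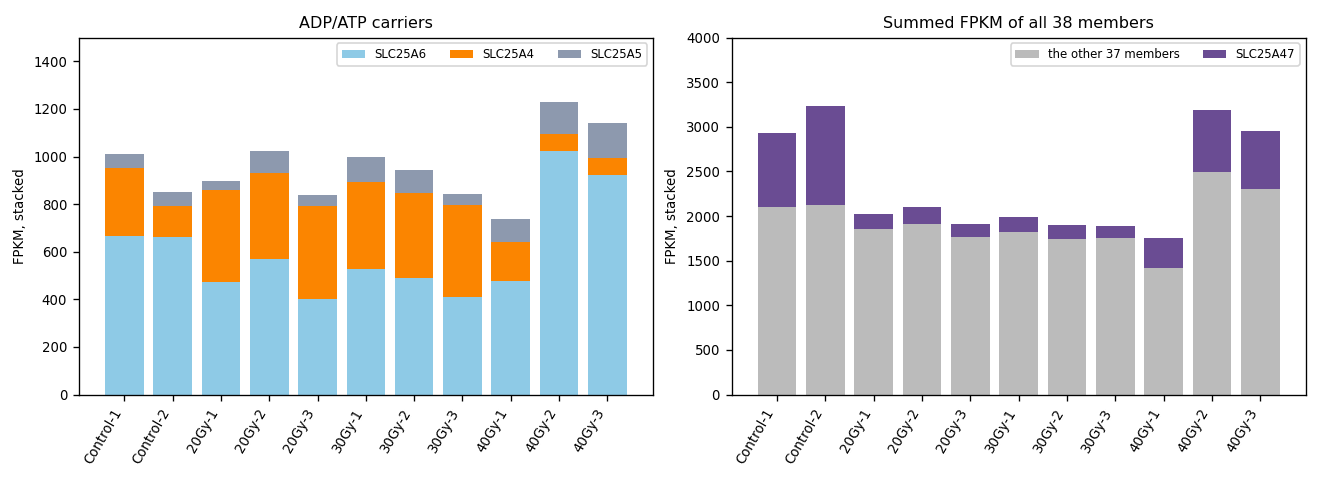
FPKM of the ADP/ATP carriers SLC25A6, SLC25A4 and SLC25A5 (left) and of SLC25A47 with the other 37 members (right), stacked, for each of the 11 libraries. SLC25A47 took 28.3% and 34.1% of the family's sum in the controls and 7.33% to 9.03% at 20 and 30 Gy, and SLC25A4 took 5.54% and 6.42% of the ADP/ATP carriers in 40Gy-2 and 40Gy-3.

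With all libraries, few members were called against the controls, and those called were lower. In the mean of the 3 doses against control, 5 of 38 members fell and 0 rose: SLC25A34, SLC25A47, SLC25A20, SLC25A1 and SLC25A45. The last of these reached 1 FPKM in 1 of the 9 irradiated libraries and passed the filter largely through the controls, and the stricter filter of 1 FPKM in 5 libraries leaves the other 4. The 5 make up 13.2% of the members, against 2.89% of all genes called in either direction, 1.71% lower and 1.18% higher. At 20 Gy, 2 members fell and 0 rose (5.26%, against 2.53% of all genes, 1.3% lower and 1.24% higher). At 30 Gy, 2 fell and 0 rose (5.26%, against 1.12% of all genes, 0.61% lower and 0.507% higher). At 40 Gy, 3 fell and 0 rose (7.89%, against 4.68% of all genes, 2.82% lower and 1.86% higher). Calls came from limma on log2(FPKM + 1) at a Benjamini-Hochberg adjusted p under 0.05 over all genes tested. At an unadjusted p under 0.05, the members that were higher numbered 1 for the mean of the doses, 4 at 20 Gy, 2 at 30 Gy and 2 at 40 Gy, and the lower ones 7, 8, 9 and 8. The share of all genes at an unadjusted p under 0.05 was not counted. These counts and those at the same threshold below therefore have no background beside them and are descriptions only. The median member change was -0.02 against 0.01 over all genes for the mean of the doses, -0.18 against -0.03 at 20 Gy, -0.14 against -0.03 at 30 Gy and -0.11 against 0.06 at 40 Gy on the log2 scale. With median-of-ratios scaling the first of these medians was 0.01, the other sign. These 4 comparisons share the same 2 controls, and without Control-2 the calls numbered 0 in each of them, with 6, 5, 6 and 8 members at an unadjusted p under 0.05. Without Control-1 they numbered 2 for the mean of the doses, 3 at 20 Gy, 1 at 30 Gy and 1 at 40 Gy. Without 40Gy-1 they numbered 8, 5, 4 and 11, where 8.97%, 9.98%, 4.42% and 19.1% of all genes were called. Of these 11 at 40 Gy, SLC25A3 (0.86), SLC25A12 (1.34) and SLC25A16 (0.61) were higher and the others lower. The median member change at 40 Gy was then -0.003 against 0.05 over all genes. The share of all genes is given for this fit only, so the counts of calls with other libraries left out are descriptions. For the mean of the doses, leaving out 20Gy-1, 20Gy-3, 30Gy-3 or 40Gy-3 left 2 calls and leaving out 20Gy-2 or 40Gy-2 left 3. At 30 Gy, leaving out 20Gy-1 or 40Gy-2 left 1 call and leaving out 30Gy-3 left 0 (6 members at an unadjusted p under 0.05), and at 40 Gy, leaving out 40Gy-2 left 2.

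The levels themselves separated a few members. In 5 members (SLC25A34, SLC25A47, SLC25A20, SLC25A1 and SLC25A42) the FPKM of every irradiated library lay below both controls, and in 0 members above both. The same held for 7.86% of all genes in the lower direction and 5.42% in the higher. With the 20 and 30 Gy libraries alone, 13 members lay below both controls (17.2% of all genes did) and 7 above (14.8%), and with the 40 Gy libraries alone 7 below (17.9%) and 2 above (19.5%). SLC25A42, the carrier that brings coenzyme A into mitochondria, was in this set without a call, at 19.2 and 29.4 FPKM in the controls and 9.09 to 15.2 FPKM in the irradiated libraries (log2 change -1.02, SE 0.253, adjusted p = 0.0701). With 30Gy-1 and 30Gy-2 separate it was called lower by limma (-0.98, adjusted p = 0.0477).

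**Figure D2:**
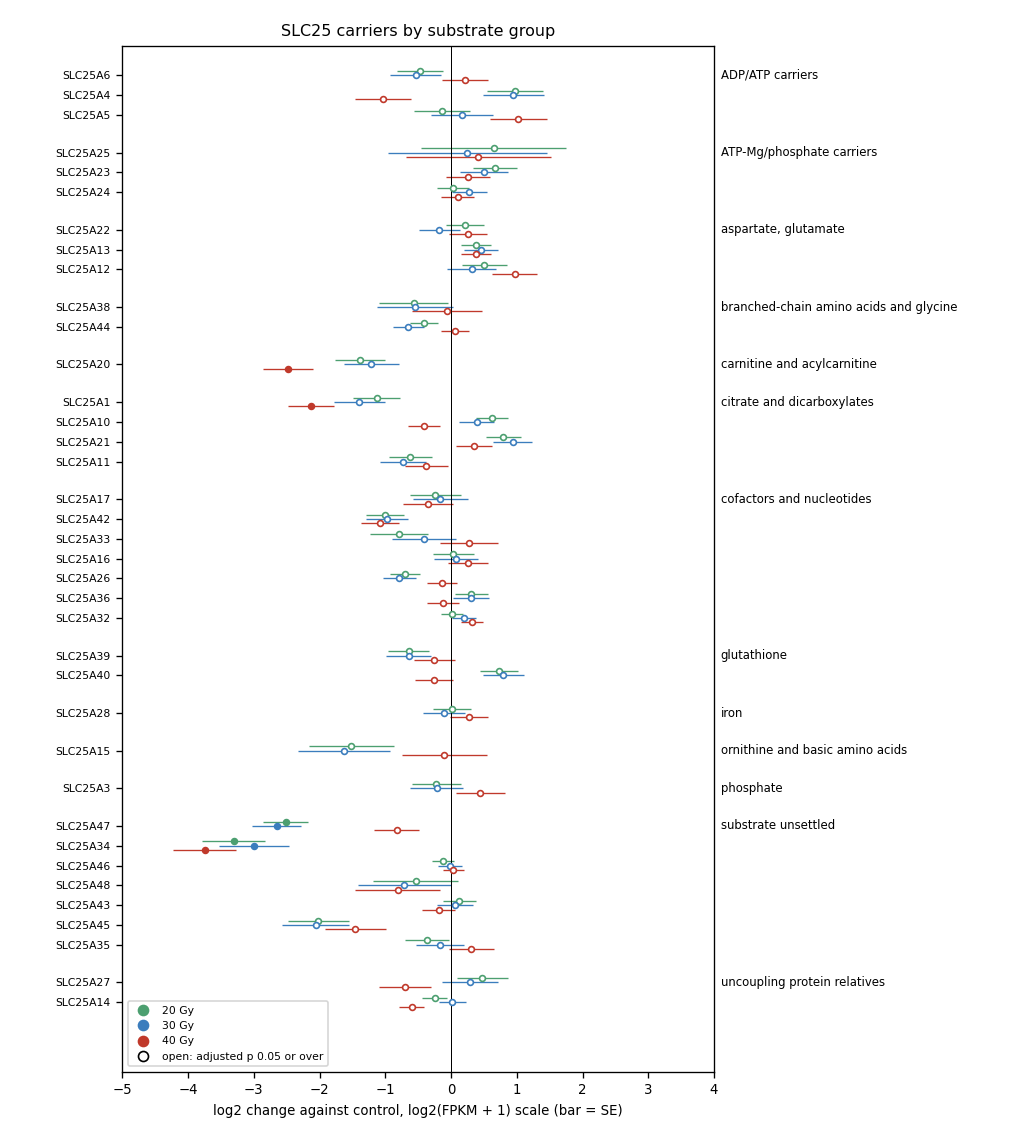
Change of 37 of the 38 members against control at 20, 30 and 40 Gy on the log2(FPKM + 1) scale, grouped by substrate, with the SE as a bar and filled points for an adjusted p under 0.05. Filled points are at SLC25A34 for each dose, at SLC25A47 for 20 and 30 Gy, and at SLC25A20 and SLC25A1 for 40 Gy, all to the left of 0.

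SLC25A34 was the member that fell farthest. It is an inner membrane carrier whose substrate is not settled, and it lies on chromosome 6, 74909637 to 74914430, ENSSSCG00000032950 (Sscrofa11.1, whole gene). Its levels were 40.8 and 60.6 FPKM in the controls, 3.44, 7.69 and 2.48 at 20 Gy, 9.09, 6.24 and 3.66 at 30 Gy and 5.31, 2.23 and 1.63 at 40 Gy. The lowest control was far above the highest irradiated library, and the doses overlapped each other. The means were 50.7 ± 13.997 FPKM in the controls (n = 2), 4.54 ± 2.77 at 20 Gy (n = 3), 5.66 ± 2.83 at 30 Gy (n = 2) and 3.06 ± 1.97 at 40 Gy (n = 3). On the log2(FPKM + 1) scale, limma gave -3.35 (SE 0.420, adjusted p = 0.00663) for the mean of the doses, -3.31 (SE 0.483, adjusted p = 0.00971) at 20 Gy, -2.997 (SE 0.530, adjusted p = 0.0314) at 30 Gy and -3.75 (SE 0.483, adjusted p = 0.00645) at 40 Gy. At 40 Gy against 20 and 30 Gy it was not called (-0.60, SE 0.390, adjusted p = 0.310). The call for the mean of the doses was lost without Control-2 only, at an adjusted p of 0.108 (0.00166 to 0.108 over 20 alternatives, changes -3.65 to -3.03). At 30 Gy it was lost in 7 of 20 alternatives, with adjusted p = 0.0574 with an offset of 0.1, 0.393 without 20Gy-3 and 30Gy-3, 0.103 without Control-1, 0.246 without Control-2, 0.0705 without 20Gy-1, 0.285 without 30Gy-3 and 0.0592 without 40Gy-2 (range 0.00997 to 0.393), at 20 Gy with adjusted p = 0.0628 without 20Gy-3 and 30Gy-3 and 0.110 without Control-2 (range 0.00301 to 0.110), and at 40 Gy with adjusted p = 0.0528 without Control-2 (range 0.00101 to 0.0528).

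SLC25A47 was low at 20 and 30 Gy and intermediate at 40 Gy. It is a carrier made mainly in hepatocytes and lies on chromosome 7, 121204213 to 121210376, ENSSSCG00000002515. Its levels were 828 and 1100.0 FPKM in the controls, 163, 189.7 and 149 at 20 Gy, 172, 158 and 139 at 30 Gy and 335, 702 and 656 at 40 Gy. The 6 libraries of 20 and 30 Gy lay within 139 to 189.7 FPKM, both controls were at 828 FPKM or more, and the 3 libraries of 40 Gy lay between, with 40Gy-1 the lowest of them. The means were 964 ± 192 FPKM (control), 167 ± 20.8 (20 Gy), 152 ± 18.4 (30 Gy) and 564 ± 199.9 (40 Gy). On the log2 scale the gene fell by 2.51 at 20 Gy (SE 0.341, limma adjusted p = 0.00716) and by 2.65 at 30 Gy (SE 0.374, adjusted p = 0.0134), and the difference at 40 Gy was -0.83 (SE 0.341, adjusted p = 0.194). For the mean of the doses the change was -1.997 (SE 0.297, adjusted p = 0.0111). Set against 20 and 30 Gy, SLC25A47 was higher at 40 Gy by 1.75 (SE 0.275, adjusted p = 0.00560). Of the 7 hepatocyte markers, ALB and TTR fell in this comparison and the others were not called in limma. Their changes were -1.94 for TF (SE 0.633, adjusted p = 0.0672), -0.67 for SERPINA1 (SE 0.363, adjusted p = 0.225), -0.41 for APOA1 (SE 0.205, adjusted p = 0.197), 0.49 for CPS1 (SE 0.422, adjusted p = 0.442) and 0.53 for HNF4A (SE 0.306, adjusted p = 0.252). The median change of the 7 was -0.67, against 0.07 over all genes. The part of hepatocyte RNA in the result was not tested. The calls were lost with adjusted p = 0.0825 without 20Gy-3 and 30Gy-3, 0.0686 without Control-1 and 0.155 without Control-2 for the mean of the doses (range 0.00117 to 0.155), with 0.0771 without 20Gy-3 and 30Gy-3 and 0.0835 without Control-2 at 20 Gy (range 0.000589 to 0.0835), with 0.291 without 20Gy-3 and 30Gy-3, 0.115 without Control-2 and 0.153 without 30Gy-3 at 30 Gy (range 0.000912 to 0.291), and with 0.0761 without 20Gy-3 and 30Gy-3 for 40 Gy against 20 and 30 Gy (range 0.000231 to 0.0761).

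SLC25A45, another member with no settled substrate (chromosome 2, 6851101 to 6857886, ENSSSCG00000012993), was near or below 1 FPKM in 8 of the 9 irradiated libraries and differed from control by -1.85 in the mean of the doses (SE 0.402, limma adjusted p = 0.0465). It passed the filter on low values largely through the controls, so the call is given as a description and supports nothing here. Its levels were 2.98 and 10.2 FPKM in the controls, 0.528, 0.914 and 0.523 at 20 Gy, 0.405, 0.506 and 0.761 at 30 Gy and 3.17, 0.963 and 0.762 at 40 Gy. The controls differed from each other widely, and 40Gy-1 was above Control-1, so the groups overlapped. This call was lost with adjusted p = 0.0561 with median-of-ratios scaling, 0.171 without 20Gy-3 and 30Gy-3, 0.383 without Control-2, 0.0957 without 20Gy-1, 0.0619 without 20Gy-2, 0.0856 without 20Gy-3, 0.0937 without 30Gy-3, 0.0814 without 40Gy-2 and 0.0670 without 40Gy-3 (range 0.0104 to 0.383), and the gene did not pass the filter that asks for 1 FPKM in 5 libraries. SLC25A35, SLC25A43, SLC25A46 and SLC25A48, also with no settled substrate, were not called in the 5 comparisons with all libraries. SLC25A46, which sits in the outer membrane, had the narrowest range of the 38, from 3.44 to 4.53 FPKM. SLC25A48 had 8.67 FPKM in 40Gy-1 and 0.627 and 0.946 FPKM in 40Gy-2 and 40Gy-3. Without 40Gy-1 it was called lower by limma at 40 Gy against control (-1.63, SE 0.279, adjusted p = 0.00661). In that fit it was also lower against 20 and 30 Gy (-1.005, SE 0.235, adjusted p = 0.0125).

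**Figure D3:**
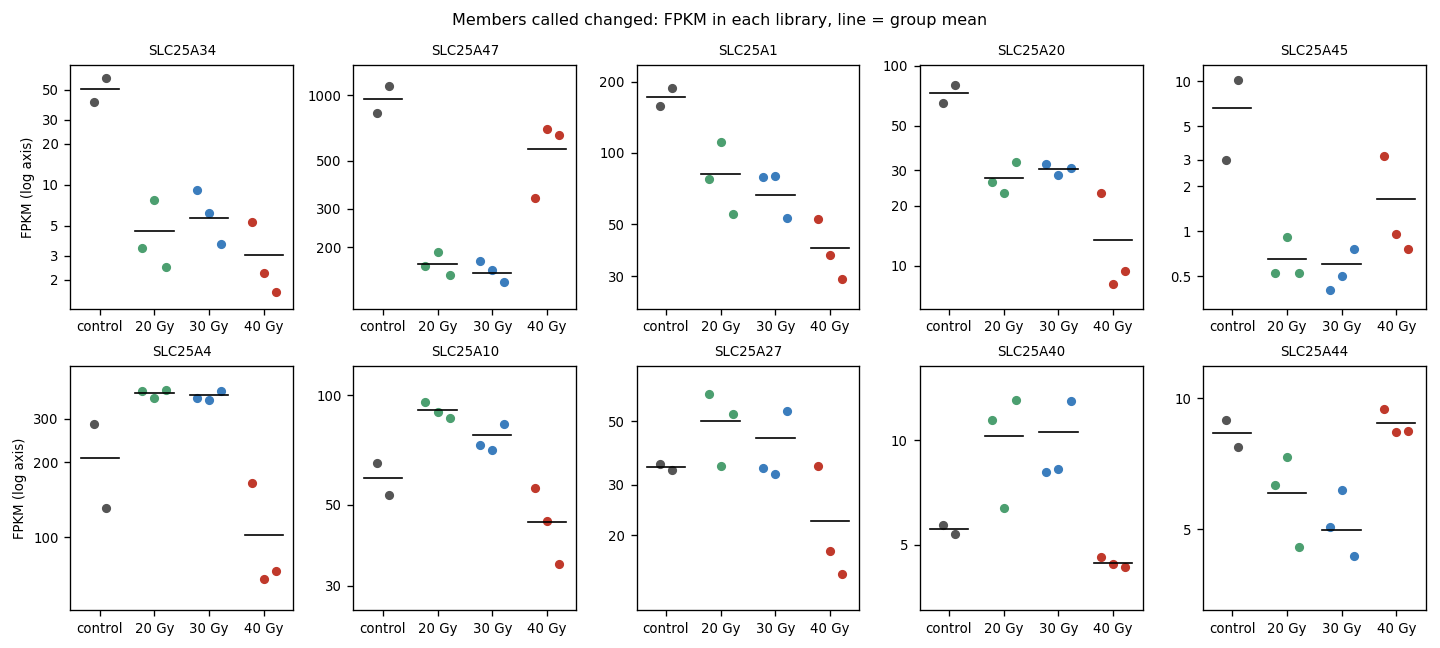
FPKM (log axis) in each of the 11 libraries for the 10 members called in at least 1 of the 5 comparisons, with a line at the group mean (at 30 Gy the mean of 30Gy-3 and of the averaged 30Gy-1 and 30Gy-2). SLC25A34, SLC25A47, SLC25A1 and SLC25A20 sit below both controls in every irradiated library, and SLC25A4, SLC25A10 and SLC25A40 sit lower at 40 Gy than in any library of 20 or 30 Gy.

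SLC25A20, the carnitine/acylcarnitine carrier that takes long-chain fatty acids into the matrix for oxidation, was lower in every irradiated library and lowest at 40 Gy. It lies on chromosome 13, 31523820 to 31553289, ENSSSCG00000011366. Its levels were 65.0 and 80.5 FPKM in the controls, 26.2, 23.0 and 33.0 at 20 Gy, 32.1, 28.4 and 30.9 at 30 Gy and 23.0, 8.13 and 9.36 at 40 Gy. The libraries of 20 and 30 Gy lay close together, 40Gy-1 was level with the lowest of them, and 40Gy-2 and 40Gy-3 were well below. The means were 72.8 ± 10.9 FPKM (control), 27.4 ± 5.11 (20 Gy), 30.6 ± 0.428 (30 Gy) and 13.5 ± 8.24 (40 Gy). On the log2 scale limma gave -1.69 (SE 0.332, adjusted p = 0.0331) for the mean of the doses and -2.48 (SE 0.381, adjusted p = 0.0110) at 40 Gy, while 20 Gy (-1.38, SE 0.381, adjusted p = 0.0962) and 30 Gy (-1.22, SE 0.418, adjusted p = 0.256) did not pass. At 40 Gy against 20 and 30 Gy it fell, with a change of -1.18 (SE 0.308, adjusted p = 0.0343). Of the 7 hepatocyte markers, ALB fell at 40 Gy against control and the other 6 were not called in limma. Their changes were -2.44 for TTR (SE 0.596, adjusted p = 0.0520), -1.39 for TF (SE 0.785, adjusted p = 0.336), -0.62 for SERPINA1 (SE 0.450, adjusted p = 0.454), -0.40 for APOA1 (SE 0.255, adjusted p = 0.391), -0.03 for CPS1 (SE 0.523, adjusted p = 0.985) and 0.32 for HNF4A (SE 0.379, adjusted p = 0.655). The median change of the 7 was -0.62, against 0.06 over all genes. The part of hepatocyte RNA in this result and in the 40 Gy results of SLC25A34 and SLC25A1 was not tested. These calls were lost with adjusted p = 0.0604 with quantile normalization, 0.120 without 20Gy-3 and 30Gy-3, 0.166 without Control-1, 0.278 without Control-2, 0.0760 without 20Gy-1, 0.0509 without 20Gy-2, 0.0533 without 20Gy-3, 0.0746 without 30Gy-3 and 0.0519 without 40Gy-3 for the mean of the doses (range 0.00115 to 0.278), with 0.0714 without Control-1 and 0.0844 without Control-2 at 40 Gy (range 0.000178 to 0.0844), and with 0.186 without 20Gy-3 and 30Gy-3, 0.0525 without Control-1, 0.0524 without Control-2, 0.0700 without 20Gy-1, 0.0749 without 20Gy-3, 0.0990 without 30Gy-3, 0.149 without 40Gy-2 and 0.127 without 40Gy-3 between doses (range 0.000572 to 0.186).

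Among the other genes of the carnitine route, 8 of 10 listed were tested, and 2 fell and 0 rose in the mean of the doses (3 lower and 0 higher at an unadjusted p under 0.05). CPT1A, which attaches carnitine to long-chain fatty acids at the outer membrane and is the controlled step of their entry, changed by -1.61 (SE 0.262, adjusted p = 0.0153). Its levels were 50.4 and 109 FPKM in the controls, 21.7, 21.9 and 22.6 at 20 Gy, 22.03, 21.4 and 22.002 at 30 Gy and 23.4, 32.0 and 28.2 at 40 Gy. CRAT, the acetyltransferase that handles short acyl groups, changed by -1.63 (SE 0.232, adjusted p = 0.00983). Both also fell at 20, 30 and 40 Gy taken alone, in limma with adjusted p from 0.0137 to 0.0453. CPT2, which acts on the matrix side directly after SLC25A20, was not called (-0.55, SE 0.323, adjusted p = 0.419). The list's median change was -0.53, against 0.01 over all genes. At 40 Gy against 20 and 30 Gy, CROT, the peroxisomal octanoyltransferase, fell (-3.20, SE 0.434, adjusted p = 0.00273), and CPT1C, a brain-type relative (1.29, SE 0.203, adjusted p = 0.00563), and TMLHE, the first enzyme of carnitine synthesis (0.79, SE 0.216, adjusted p = 0.0405), rose. CPT1C was low, at 1.29 and 2.19 FPKM in the controls, 0.325 to 0.697 at 20 and 30 Gy and 1.68 to 3.42 at 40 Gy. It passed the filter through the controls and the 40 Gy libraries only, so its call is given as a description.

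SLC25A1, which exports citrate to the cytosol as the carbon source for fatty acid and sterol synthesis, was also below both controls in every irradiated library. It lies on chromosome 14, 50974616 to 51002970, ENSSSCG00000010116, where the gene table lists LOC100155135 as overlapping, and reads of overlapping genes may be mixed. Its levels were 158 and 188 FPKM in the controls, 77.3, 111 and 54.9 at 20 Gy, 79.0, 80.0 and 52.9 at 30 Gy and 52.5, 37.1 and 29.2 at 40 Gy. The libraries of 40 Gy were the lowest, with 40Gy-1 just under 30Gy-3. The means were 173 ± 21.5 FPKM (control), 81.2 ± 28.5 (20 Gy), 66.2 ± 18.8 (30 Gy) and 39.6 ± 11.8 (40 Gy). Limma gave -1.55 (SE 0.308, adjusted p = 0.0350) for the mean of the doses and -2.13 (SE 0.354, adjusted p = 0.0136) at 40 Gy on the log2 scale, and neither 20 Gy (-1.13, SE 0.354, adjusted p = 0.132) nor 30 Gy (-1.39, SE 0.388, adjusted p = 0.156) passed. The calls were lost with adjusted p = 0.118 without 20Gy-3 and 30Gy-3, 0.175 without Control-1, 0.279 without Control-2, 0.0787 without 20Gy-1, 0.0517 without 20Gy-3, 0.0798 without 30Gy-3, 0.0692 without 40Gy-2 and 0.0517 without 40Gy-3 for the mean of the doses (range 0.0113 to 0.279) and with 0.0834 without Control-1, 0.1002 without Control-2 and 0.0564 without 40Gy-2 at 40 Gy (range 0.00353 to 0.1002).

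Among cytosolic enzymes listed for fat synthesis from citrate, not all of which take citrate itself, 5 were listed and 4 tested. Of these, 3 rose and 0 fell in the mean of the doses (4 higher and 0 lower at an unadjusted p under 0.05), with a median change of 1.08 against 0.01 over all genes. ACLY, which splits citrate into acetyl-CoA, changed by 0.86 (SE 0.172, adjusted p = 0.0355). ACACA, the acetyl-CoA carboxylase of fat synthesis, changed by 1.296 (SE 0.233, adjusted p = 0.0223), rose at 20 and 30 Gy and was not called at 40 Gy (0.03, SE 0.268, adjusted p = 0.962). Its levels at 40 Gy were 4.78, 8.78 and 6.56 FPKM, around those of the controls (6.38 and 6.35 FPKM). ME1, the malic enzyme, was not called in the mean of the doses (0.78, SE 0.182, adjusted p = 0.0589). It was at 0.056 and 0.200 FPKM in the controls and reached 1 FPKM only in 20Gy-1 (1.14 FPKM) and 40Gy-3 (1.56 FPKM). ME1 thus passed the filter through irradiated libraries alone, which favours a higher value there, and its place among the 4 higher genes and in the median supports nothing here. FASN, fatty acid synthase, changed by 4.03 (SE 0.230, adjusted p = 7.62e-05), with 19.7 and 22.2 FPKM in the controls, 924, 748 and 719 at 20 Gy, 570.2, 529.9 and 708 at 30 Gy and 77.5, 119 and 81.0 at 40 Gy. FASN was thus higher in every irradiated library than in either control and highest at 20 and 30 Gy. Against 20 and 30 Gy, the 40 Gy libraries were lower in FASN (-2.94, SE 0.213, adjusted p = 0.000238) and in ACACA (-1.90, SE 0.216, adjusted p = 0.00137). SREBF1, which encodes a transcription factor of lipid synthesis, rose in the mean of the doses (1.15, SE 0.246, adjusted p = 0.0431), 1 of the 10 listed regulators to be called there, and rose at 40 Gy (1.29, SE 0.282, adjusted p = 0.0369).

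The other carriers of this group carry dicarboxylates. SLC25A10, which exchanges malate and succinate for phosphate (chromosome 12, 1191242 to 1197439, ENSSSCG00000033620, overlapping LOC110255939), had 65.3 and 53.1 FPKM in the controls, 96.1, 90.0 and 86.8 at 20 Gy, 73.2, 70.6 and 83.3 at 30 Gy and 55.6, 45.1 and 34.3 at 40 Gy. Its 6 libraries of 20 and 30 Gy were above both controls, and the 3 of 40 Gy were below those 6. The difference from control was not called at 20 Gy (0.62, SE 0.242, adjusted p = 0.201), 30 Gy (0.39, SE 0.265, adjusted p = 0.609) or 40 Gy (-0.41, SE 0.242, adjusted p = 0.360), while at 40 Gy against 20 and 30 Gy it fell, with a change of -0.91 (SE 0.195, adjusted p = 0.0175). That call was lost with adjusted p = 0.135 without 20Gy-3 and 30Gy-3, 0.0702 without 30Gy-3, 0.0739 without 40Gy-2 and 0.0759 without 40Gy-3 (range 0.00305 to 0.135). SLC25A11, the oxoglutarate/malate carrier, ran from 1.96 to 5.65 FPKM, and SLC25A21, the oxoadipate carrier, from 3.28 to 11.9 FPKM, and neither was called in the 5 comparisons.

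Between doses more members were called. At 40 Gy against the mean of 20 and 30 Gy, 2 of 38 members rose (SLC25A47 and SLC25A44) and 5 fell (SLC25A4, SLC25A10, SLC25A40, SLC25A20 and SLC25A27). This is 18.4% of the members, against 15.3% of all genes (8.09% higher and 7.21% lower), so the share was near the background. At an unadjusted p under 0.05, 7 members were higher and 9 lower, and the median member change was 0.04 against 0.07 over all genes (-0.04 for the members with median-of-ratios scaling, and 0.21 against 0.06 without 40Gy-1). In 5 members every 40 Gy library was above the 6 of 20 and 30 Gy (13.0% of all genes did the same), and in 7 members below them (10.8%). The 40 Gy libraries differed from the others in cell markers as well. Macrophage markers (4 of 5 listed in the table) summed to 149 to 285 FPKM at 40 Gy, 56.0 to 134 at 20 and 30 Gy, and 80.2 to 114 in the controls, and neutrophil markers (3 of 5 listed) to 7.71 to 17.9, 0.341 to 1.01, and 1.53 to 4.60 FPKM. S100A8 was listed at 0 in 4 of the 6 libraries of 20 and 30 Gy. Stellate cell markers (6 of 6) summed to 233 FPKM in 40Gy-1 but to 35.7 and 29.3 in 40Gy-2 and 40Gy-3, 82.5 to 119 at 20 and 30 Gy, and 22.3 to 42.4 in the controls. The part of these cells in the members' changes was not tested. In the fits below, the number of all genes called is given only without 40Gy-1, so the other counts of members are descriptions. Without 40Gy-1, 11 members were higher and 8 lower, where 4077 of all genes were called, and without 20Gy-3 and 30Gy-3 the calls numbered 0, with 10 members at an unadjusted p under 0.05. Without 40Gy-2, without 40Gy-3 or without 30Gy-3 they numbered 2, without 20Gy-1 they numbered 3 and without 20Gy-3 they numbered 4.

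Of the 3 ADP/ATP carriers, which exchange cytosolic ADP for matrix ATP, SLC25A4 was called between doses and SLC25A5 and SLC25A6 were not. Without 40Gy-1 these too were called between doses, both higher (SLC25A6 1.06, SE 0.193, adjusted p = 0.00443, and SLC25A5 1.196, SE 0.385, adjusted p = 0.0425). SLC25A4, the form that prevails in heart and skeletal muscle (chromosome 15, 46193498 to 46197989, ENSSSCG00000015790), had 285 and 131 FPKM in the controls, 387, 364 and 389.5 at 20 Gy, 364, 356 and 388 at 30 Gy and 166, 68.0 and 73.2 at 40 Gy. The 6 libraries of 20 and 30 Gy lay within 356 to 389.5 FPKM, above both controls, which differed widely from each other. The 40 Gy libraries lay far below those 6, and 40Gy-2 and 40Gy-3 were below both controls. SLC25A4 fell at 40 Gy against 20 and 30 Gy by 1.99 on the log2 scale (SE 0.345, limma adjusted p = 0.00799, and 0.0813 without 20Gy-3 and 30Gy-3, range 0.000585 to 0.0813). Against control it was not called at 20 Gy (0.97, SE 0.428, adjusted p = 0.252), 30 Gy (0.95, SE 0.469, adjusted p = 0.464) or 40 Gy (-1.03, SE 0.428, adjusted p = 0.196). Without 40Gy-1, SLC25A4 was called lower at 40 Gy against control (-1.44, SE 0.326, adjusted p = 0.0193). Of 5 listed skeletal muscle markers 0 were in the table, so muscle RNA was not assessed.

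SLC25A6, the most abundant member, had 666 and 661 FPKM in the controls, 472, 569 and 402 at 20 Gy, 528, 491 and 408 at 30 Gy and 476, 1025 and 921 at 40 Gy. It lies on a sequence not placed on a chromosome in Sscrofa11.1. 40Gy-2 and 40Gy-3 were the highest, 40Gy-1 lay with the 20 and 30 Gy libraries, and no comparison was called (40 Gy against 20 and 30 Gy 0.72, SE 0.281, adjusted p = 0.111). SLC25A5, the form of dividing cells, ran from 38.2 to 145 FPKM and was likewise not called (40 Gy against 20 and 30 Gy 1.01, SE 0.348, adjusted p = 0.0789). SLC25A4 therefore made up 28.2% and 15.3% of the 3 genes' FPKM in the controls, 35.5% to 46.5% at 20 and 30 Gy, and 22.5%, 5.54% and 6.42% at 40 Gy, while the sum of the 3 was 853 to 1010.1 FPKM in the controls, 838 to 1023 at 20 and 30 Gy, and 736, 1228 and 1139 at 40 Gy. SLC25A3, which brings in the phosphate for ATP synthesis, had 125 to 164 FPKM in the controls, the 20 and 30 Gy libraries and 40Gy-1, and 321 and 276 FPKM in 40Gy-2 and 40Gy-3. Without 40Gy-1 it was called higher at 40 Gy against control (0.86, limma adjusted p = 0.0211), but not with all libraries (0.45, SE 0.368, adjusted p = 0.514).

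The remaining calls between doses were at lower levels. SLC25A40, which helps to bring glutathione into mitochondria (chromosome 9, 92481524 to 92526729, ENSSSCG00000026177, overlapping DBF4 and RUNDC3B), had 5.70 and 5.37 FPKM in the controls, 11.4, 6.38 and 13.1 at 20 Gy, 8.12, 8.26 and 13.0 at 30 Gy and 4.60, 4.40 and 4.33 at 40 Gy. Every library of 20 and 30 Gy was above both controls and every library of 40 Gy below both, and the change at 40 Gy against 20 and 30 Gy was -1.03 (SE 0.232, adjusted p = 0.0207). That call was lost with adjusted p = 0.142 without 20Gy-3 and 30Gy-3, 0.0514 without 20Gy-1, 0.0778 without 30Gy-3, 0.0887 without 40Gy-2 and 0.0761 without 40Gy-3 (range 0.00679 to 0.142). SLC25A39, the abundant carrier of the same substrate, ran from 79.1 to 155 FPKM and was not called (0.39, SE 0.251, adjusted p = 0.304 for the same comparison). Without 40Gy-1, SLC25A39 was called higher there by limma (0.66, SE 0.206, adjusted p = 0.0375). SLC25A27, a relative of the uncoupling proteins (chromosome 7, 41426161 to 41457887, ENSSSCG00000001720), had 35.5 and 33.8 FPKM in the controls, 62.0, 34.8 and 53.1 at 20 Gy, 34.3, 32.7 and 54.1 at 30 Gy and 34.9, 17.7 and 14.7 at 40 Gy. 40Gy-1 lay with the controls and 40Gy-2 and 40Gy-3 were the lowest, for a change of -1.09 (SE 0.314, adjusted p = 0.0470) against 20 and 30 Gy. SLC25A44, which imports branched-chain amino acids (chromosome 4, 93837004 to 93857154, ENSSSCG00000006494), had 8.93 and 7.74 FPKM in the controls, 6.31, 7.34 and 4.55 at 20 Gy, 5.06, 6.15 and 4.35 at 30 Gy and 9.47, 8.37 and 8.42 at 40 Gy. Its 40 Gy libraries lay above every library of 20 and 30 Gy and 40Gy-1 above both controls, for a rise of 0.60 (SE 0.172, adjusted p = 0.0464). The last 2 calls were lost in many alternatives: SLC25A27 lost its call in 8 of 20 alternatives (adjusted p = 0.251 without 20Gy-3 and 30Gy-3, 0.0700 without Control-1, 0.0700 without Control-2, 0.0985 without 20Gy-1, 0.0934 without 20Gy-3, 0.153 without 30Gy-3, 0.177 without 40Gy-2 and 0.171 without 40Gy-3, range 0.00453 to 0.251) and SLC25A44 in 12 of 20 (adjusted p = 0.0620 with quantile normalization, 0.0678 with median-of-ratios scaling, 0.250 without 20Gy-3 and 30Gy-3, 0.0644 without Control-1, 0.0644 without Control-2, 0.0889 without 20Gy-1, 0.0834 without 20Gy-3, 0.0605 without 30Gy-1, 0.156 without 30Gy-3, 0.0515 without 40Gy-1, 0.133 without 40Gy-2 and 0.116 without 40Gy-3, range 0.0248 to 0.250).

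SLC25A25, which exchanges ATP-Mg for phosphate under the control of calcium and so sets the adenine nucleotide pool of the matrix, split the libraries within each dose. It lies on chromosome 1, 268531752 to 268575195, ENSSSCG00000005636. Its levels were 48.2 and 74.5 FPKM in the controls, 162, 29.5 and 173 at 20 Gy, 28.1, 28.6 and 177 at 30 Gy and 20.4, 160.1 and 155 at 40 Gy. 20Gy-1, 20Gy-3, 30Gy-3, 40Gy-2 and 40Gy-3 had 155 to 177 FPKM, above both controls, and 20Gy-2, 30Gy-1, 30Gy-2 and 40Gy-1 had 20.4 to 29.5 FPKM, below both. The means of the doses were therefore wide, at 122 ± 80.0 FPKM at 20 Gy, 103 ± 105 at 30 Gy and 112 ± 79.2 at 40 Gy against 61.4 ± 18.6 in the controls. The change in the mean of the doses was 0.44 (SE 0.958, adjusted p = 0.851) and was not called, and its sign turned (-0.14) when 20Gy-3 and 30Gy-3 were left out. The other carriers of ATP-Mg were at lower levels, with SLC25A23 at 2.32 to 7.24 FPKM and SLC25A24 at 0.464 to 1.58 FPKM, and were not called.

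Other members, picked here after their values were seen, showed the same libraries apart within 20 and 30 Gy. SLC25A15, the ornithine carrier of the urea cycle, had 92.0 and 164 FPKM in the controls, 50.2, 28.0 and 53.9 at 20 Gy, 28.6, 29.8 and 52.0 at 30 Gy and 41.7, 190.2 and 187 at 40 Gy. It was higher in 20Gy-1, 20Gy-3 and 30Gy-3 than in 20Gy-2, 30Gy-1 and 30Gy-2, and so were SLC25A27 and SLC25A40, whose values are above. SLC25A5 had the opposite order, with 59.0 and 60.9 FPKM in the controls, 38.2, 90.6 and 46.3 at 20 Gy, 106, 97.0 and 44.6 at 30 Gy and 94.1, 135 and 145 at 40 Gy. PPARGC1A, which encodes a coactivator that raises mitochondrial genes and is no member, had 5.43 and 8.31 FPKM in the controls, 15.9, 3.59 and 18.4 at 20 Gy, 3.61, 3.84 and 19.3 at 30 Gy and 1.95, 8.21 and 7.45 at 40 Gy, with the same 3 libraries of 20 and 30 Gy the highest. The difference within a dose was not tested, since no label separates these libraries. Macrophage markers summed to 56.0 to 60.1 FPKM in 20Gy-1, 20Gy-3 and 30Gy-3 and to 130.0 to 134 FPKM in 20Gy-2, 30Gy-1 and 30Gy-2, and their part in the split was not tested. 20Gy-3 and 30Gy-3 are near-identical, as are 30Gy-1 and 30Gy-2, so that the split rests on 4 distinct libraries. Across the 6 libraries of 20 and 30 Gy, the highest value was over 2-fold above the lowest in 10 of 38 members, with SLC25A25 (6.32-fold), SLC25A35 (4.92-fold) and SLC25A34 (3.66-fold) the widest. The same share over all genes was not counted, so this is a description.

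**Figure D4:**
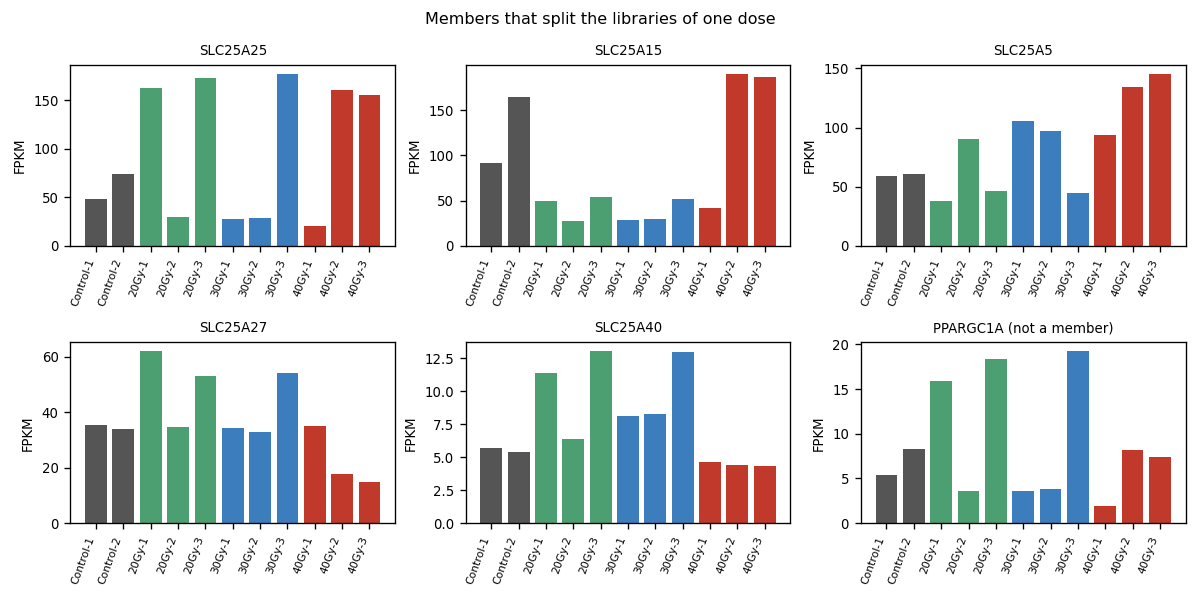
FPKM of SLC25A25, SLC25A15, SLC25A5, SLC25A27, SLC25A40 and the non-member PPARGC1A in each of the 11 libraries, with bars from 0 coloured by group. 20Gy-1, 20Gy-3 and 30Gy-3 stand above 20Gy-2, 30Gy-1 and 30Gy-2 in all panels but SLC25A5, where they stand below.

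With all libraries, SLC25A44 was the only amino acid carrier called in the 5 comparisons. SLC25A13 and SLC25A12, the aspartate/glutamate carriers of the malate-aspartate shuttle, ran from 13.2 to 25.1 and 0.828 to 4.63 FPKM, and SLC25A22, a glutamate carrier, from 42.0 to 77.7 FPKM. The shuttle's 4 enzymes were measured, and 0 were called against control in limma for the mean of the doses (0 at an unadjusted p under 0.05). At 40 Gy against 20 and 30 Gy, MDH1, the cytosolic malate dehydrogenase, rose (1.09, SE 0.308, adjusted p = 0.0442) and GOT2, the matrix aspartate aminotransferase, fell (-1.11, SE 0.210, adjusted p = 0.0112). SLC25A15 was lower than both controls in each library of 20 and 30 Gy and highest in 40Gy-2 and 40Gy-3, but did not pass at 20 Gy (-1.52, SE 0.643, adjusted p = 0.237), 30 Gy (-1.63, SE 0.705, adjusted p = 0.378) or between doses (1.47, SE 0.518, adjusted p = 0.0836). Without 40Gy-1 the difference between doses was called (2.19, limma adjusted p = 0.00244). Of the 7 urea cycle enzymes, OTC, which makes citrulline from the ornithine that SLC25A15 brings in, fell at 40 Gy against control (-1.02, SE 0.238, adjusted p = 0.0438) and against 20 and 30 Gy (-1.02, SE 0.192, adjusted p = 0.0112), and the other 6 were not called in the 5 comparisons. SLC25A38, a glycine carrier of heme synthesis, ran from 6.28 to 28.9 FPKM. Without 40Gy-1, SLC25A38 was called higher between doses (1.14, SE 0.207, adjusted p = 0.00429), and SLC25A12 at 40 Gy against control (1.34, SE 0.210, adjusted p = 0.00457) and between doses (0.93, SE 0.177, adjusted p = 0.00528).

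With all libraries, the 8 cofactor and nucleotide carriers were not called by limma in any of the 5 comparisons (2 lower for the mean of the doses, and 2 higher and 1 lower between doses, at an unadjusted p under 0.05). Without 40Gy-1, SLC25A16 was called higher at 40 Gy against control (0.61, adjusted p = 0.0407) and SLC25A42 lower (-1.14, adjusted p = 0.0387). Of the members with values given here, that fit called SLC25A16 (0.55, adjusted p = 0.0193), SLC25A26 (0.72, adjusted p = 0.0191) and SLC25A33 (1.15, adjusted p = 0.0435) higher between doses. With 30Gy-1 and 30Gy-2 separate, SLC25A26 was called higher between doses (adjusted p = 0.0319). The most abundant was SLC25A17, a peroxisomal cofactor carrier, at 26.9 to 74.4 FPKM. SLC25A26, which imports S-adenosylmethionine, was lower than both controls in every library of 20 and 30 Gy, and every library of 40 Gy was above those, with a difference between doses of 0.60 (SE 0.184, adjusted p = 0.0553). The pyrimidine nucleotide carriers SLC25A33 and SLC25A36 ran from 4.18 to 17.1 and 1.58 to 4.13 FPKM, and the folate carrier SLC25A32 from 1.31 to 2.34 FPKM. SLC25A28, which supplies iron for heme and iron-sulfur clusters, ran from 21.95 to 43.6 FPKM and had changes of 0.01, -0.11 and 0.27 at 20, 30 and 40 Gy on the log2 scale, none called.

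Genes that insert or accompany carriers were seldom called. Of 9 listed genes of the machinery that inserts carriers into the inner membrane, 8 were tested and 0 were called against control in limma (1 at an unadjusted p under 0.05 for the mean of the doses), and TOMM70, the receptor of carrier precursors on the outer membrane, rose at 40 Gy against 20 and 30 Gy (0.81, SE 0.206, adjusted p = 0.0324). Of 15 genes listed for mitochondrial content, such as citrate synthase and respiratory chain subunits, 13 were tested and 0 were called in the 5 comparisons in limma. At an unadjusted p under 0.05 there were 0 for the mean of the doses, 1 at 20 Gy, 0 at 30 Gy, 0 at 40 Gy and 3 between doses. Their median changes were -0.10 for the mean of the doses and 0.34 at 40 Gy against 20 and 30 Gy, beside 0.01 and 0.07 over all genes. Of 8 listed outer membrane channels and carrier relatives with other symbols, UCP2 and MTCH1 among them, 4 were tested and 0 were called in limma (0 at an unadjusted p under 0.05 for the mean of the doses). The members and the family sums above cover only genes with an SLC25A symbol. MPC2, a subunit of the pyruvate carrier, was not called (-0.94, SE 0.276, adjusted p = 0.118 for the mean of the doses).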

How the data were processed

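RNA from 11 pig liver libraries was analysed: 2 controls and 3 each at 20, 30 and 40 Gy. The authors deposited 1 table of FPKM for 12505 genes, and the submitters' processing notes name HISAT2, Cufflinks and HTSeq, and the builds Sscrofa11.1 and mm10, with versions, annotation, strand handling and filters not given in the sources used here. No whole-read steps were found (at most 6.35% of low genes shared 1 ratio), so the depth is unknown and no counting interval can be given.

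Symbols were matched to 10561 gene IDs. Values were taken as log2(FPKM + 1), so fold changes of low genes are understated, for 11644 genes with at least 1 FPKM in 2 libraries. limma 3.58.1 in R 4.3.3 fitted 4 group means to 10 samples (30Gy-1 and 30Gy-2 averaged) with a variance trend, which left 6 residual degrees of freedom. Each test was two-sided, and p-values were adjusted by Benjamini-Hochberg over all genes tested in each of 5 comparisons. The fit was tested on simulated data. Coordinates come from the RefSeq table of Sscrofa11.1 by symbol.

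The members and gene lists were chosen with earlier results of these data known. Values in every library are given for members called in any comparison, for SLC25A34, SLC25A20 and SLC25A25, and for the 2 members with the highest mean; others are given by ranges, except those named as picked after their values were seen. The 20 alternatives were an offset of 0.1, no filter, 1 FPKM in 5 libraries, quantile and median-of-ratios scaling, 30Gy-1 and 30Gy-2 separate, the replicate number as a block, no variance trend, 20Gy-3 and 30Gy-3 removed, and each of the 11 libraries left out. The values of 1 member are not reported here, though it is counted in the totals.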

Additional observations from a re-analysis of the deposited data

Results flagged for a closer look

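The 7 members whose 40 Gy libraries differed from those of 20 and 30 Gy were singled out because that difference was itself tested, in limma on the log2 scale with Benjamini-Hochberg adjustment. They are 18.4% of the 38 members, against 15.3% of all genes in the same comparison, and 0 of the 7 calls remained without 20Gy-3 and 30Gy-3. SLC25A47 was higher at 40 Gy by 1.75 (adjusted p = 0.00560), and all 3 of its 40 Gy libraries were above the 6 others. SLC25A44 was higher by 0.60 (adjusted p = 0.0464), with the same separation. SLC25A4 differed by -1.99 (adjusted p = 0.00799), SLC25A40 by -1.03 (adjusted p = 0.0207), SLC25A10 by -0.91 (adjusted p = 0.0175) and SLC25A20 by -1.18 (adjusted p = 0.0343), all 4 with every 40 Gy library below the 6 others. For SLC25A20 this was in effect a tie between 40Gy-1 and 20Gy-2 (22.97 and 23.01 FPKM). SLC25A27 differed by -1.09 (adjusted p = 0.0470), and 40Gy-1 overlapped the lower doses. No group had the 4 libraries needed to look for a library far from the others.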

How the results depend on the processing

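The number of members called depended on single libraries, and so did the number of all genes called, as given above for 40Gy-1. With all libraries the shares of all genes called were 2.89% for the mean of the doses, 2.53% at 20 Gy, 1.12% at 30 Gy, 4.68% at 40 Gy and 15.3% between doses. The counts of calls from other fits in this section have no such share beside them and are descriptions only. Leaving out each library in turn gave 0 to 8 calls for the mean of the doses against control (5 with all libraries), 0 to 5 at 20 Gy (2), 0 to 4 at 30 Gy (2), 0 to 11 at 40 Gy (3) and 2 to 19 for 40 Gy against 20 and 30 Gy (7). Without 20Gy-3 and 30Gy-3 the calls numbered 1 for the mean of the doses, 0 at 20 Gy (8 at an unadjusted p under 0.05), 0 at 30 Gy (5) and 0 between doses (10). An offset of 0.1 gave 1 call at 30 Gy. With 30Gy-1 and 30Gy-2 separate there were 11 between doses. The remaining alternatives, including filters, scalings and the variance trend, stayed within 1.5 times of each count.

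With the replicate number as a block (11 libraries separate) there were 12 calls between doses, 4 for the mean of the doses, 2 at 20 Gy, 2 at 30 Gy and 3 at 40 Gy. Deviations of same-numbered libraries from their group means correlated from -0.616 to 0.645, 7 of 15 pairs were over 0.1, and 5 of 11 libraries correlated best with their own number. These values cannot settle whether the numbers pair the samples, since deviations within such small groups depend on each other.

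Of the alternatives for single members, 307 kept the direction and side of the threshold, 90 kept the direction and lost the call, and 2 turned the sign: SLC25A25 in the mean of the doses, at -0.30 with the block and -0.14 when 20Gy-3 and 30Gy-3 were removed, against 0.44. Under the block SLC25A45 lost its call (adjusted p = 0.0566). The cause was not tested. Where 30Gy-3 was left out, 30 Gy was 1 sample, assumed to vary like the other groups. No scaling moved the median of all genes by over 0.1 on the log2 scale. Neither the depth nor the precision of low FPKM values is known.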
